A study of Mus musculus with 15 samples.

Results

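Imprinted growth genes, here Dlk1, Rian, Meg3, Igf2, H19, Cdkn1c, Peg3, Mest, Grb10 and Plagl1, were followed through the first branchial arch of E10.5 mouse embryos, a midgestation stage. They were taken by gene symbol from the probe annotation and came to 10 genes with 33 of the array's 45037 probe sets that were not controls. Probe sets with a single symbol named 18194 genes, among them 9 of the 10. A probe set is a group of short probes that together give 1 signal for a transcript. The upper jaw grows from the maxillary branch of this arch and the lower jaw from the mandibular branch. The series held 15 arrays in 5 groups of 3. The groups were the mandibular branch of Dlx5/6 mutants, the maxillary branch of a knockout labelled only KO, the WT (wild-type) mandibular branch, and the WT maxillary branch in a set 1 (labelled WT_MXA) and a set 2 (labelled WT_MXA2). All embryos were mice of the same stage, and strain, alleles and promoters were not given for any group. The labels' plan named dlx2, dlx1/2 and Dlx5/6 mutants without saying which of them the KO arrays held, and it foresaw about 10 arches for each experiment. No label said whether the 3 arrays of a group came from separate litters or pools, so the p values measured only the spread between these arrays, which may be technical.

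Genomic imprinting silences the copy of a gene that came from a given parent, so that most transcripts come from the other copy. Genes read from the paternal copy, such as Igf2, Dlk1, Peg3, Mest and Plagl1, often promote growth of the embryo, while H19, Meg3, Rian, Cdkn1c and Grb10 are read mostly from the maternal copy, and Cdkn1c and Grb10 restrain growth. The genes lie in clusters under shared control regions, and Plagl1 encodes a zinc finger factor known to bind and regulate several of the others. The arrays measured the RNA of both copies together and did not tell the parental copies apart.

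In GRCm38.p6, Dlk1 lay at chr12:109452485-109463336, Meg3 at chr12:109540996-109571729 and Rian at chr12:109603945-109661716. On chromosome 7 lay H19 at chr7:142575530-142578146, Igf2 at chr7:142650768-142666816, Cdkn1c at chr7:143458339-143461059 and Peg3 at chr7:6703892-6730462. Mest lay at chr6:30733506-30748466, Grb10 at chr11:11930499-12037428 and Plagl1 at chr10:13090832-13131694. H19 had 1 probe set, which the annotation gave to H19 and to the microRNA gene Mir675 inside it, so its values are given for the pair and stand outside the counts of members. Of the other 32 probe sets, 30 lay above the lower signal limit of the analysis (above the 40th percentile on at least 3 arrays), in 9 genes, and the 2 that did not were probe sets of Peg3.

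RefSeq start-site windows (GRCm38.p6, 250 bases before to 50 after the start) were found for 8 of the 10 members, 15 windows in all, and not for H19 and Cdkn1c. They were searched on both strands for TAATTA, the homeodomain core that Dlx proteins are known to bind, and for GGGGCCCC, a palindrome bound by Plagl1. TAATTA stood in 1 of the 15 member windows and in 5.29% of 32544 windows of all genes, and GGGGCCCC stood in 1 of 15 and in 1.07% of all. These 4 windows are shown because they belong to members described at length: the first start of Meg3, the Igf2 start that held TAATTA, the Peg3 start that held GGGGCCCC, and the start of Plagl1 itself. Capitals mark the searched letters, each line reads 5′ to 3′ on the gene's own strand, and the positions are chr12:109540746-109541045 (plus strand), chr7:142658755-142659054 (minus), chr7:6730370-6730669 (minus) and chr10:13090582-13090881 (plus).
Meg3 first start: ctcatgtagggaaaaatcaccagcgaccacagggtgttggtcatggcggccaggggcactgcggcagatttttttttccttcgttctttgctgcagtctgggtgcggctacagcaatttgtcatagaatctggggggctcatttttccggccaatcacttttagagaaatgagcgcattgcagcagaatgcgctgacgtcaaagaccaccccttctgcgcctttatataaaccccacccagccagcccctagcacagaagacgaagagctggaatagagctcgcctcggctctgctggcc
Igf2 start with TAATTA: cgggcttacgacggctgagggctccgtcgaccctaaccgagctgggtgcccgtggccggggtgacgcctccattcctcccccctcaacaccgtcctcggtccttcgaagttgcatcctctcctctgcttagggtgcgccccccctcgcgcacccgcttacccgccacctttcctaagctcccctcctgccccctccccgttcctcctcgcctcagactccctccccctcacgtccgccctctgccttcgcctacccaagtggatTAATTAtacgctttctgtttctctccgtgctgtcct
Peg3 start: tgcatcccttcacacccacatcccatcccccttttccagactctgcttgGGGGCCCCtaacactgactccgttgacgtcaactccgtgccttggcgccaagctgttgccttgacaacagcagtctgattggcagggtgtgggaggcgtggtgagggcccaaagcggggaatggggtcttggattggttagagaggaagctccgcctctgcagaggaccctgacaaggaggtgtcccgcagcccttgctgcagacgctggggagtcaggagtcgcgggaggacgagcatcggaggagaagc
Plagl1 start: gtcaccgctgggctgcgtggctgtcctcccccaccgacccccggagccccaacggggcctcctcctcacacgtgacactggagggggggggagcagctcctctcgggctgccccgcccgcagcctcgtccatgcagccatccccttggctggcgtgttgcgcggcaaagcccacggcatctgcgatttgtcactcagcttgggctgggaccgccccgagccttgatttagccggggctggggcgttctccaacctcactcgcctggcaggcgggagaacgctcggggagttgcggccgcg
A match describes the letters of a window and no site, and binding was not measured in these samples. The median share of G and C was 59.3% in the member windows and 53% in all windows.

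The values were linear signals that had been scaled on every array before deposition, to a mean of 150.0 without the lowest and highest 2%. Median signals per array ran from 26.6 to 33.4. Each array correlated with its group mates at a mean of 0.984 to 0.989. That was computed over the 31643 probe sets above the signal limit, on the log2 scale after quantile normalization. A control signal of the arrays (dap) lay between 287 and 339.7 on the mutant mandibular, WT mandibular and WT maxillary set 1 arrays and between 2564 and 2821 on the KO and WT maxillary set 2 arrays, so the arrays fell into 2 sets. Comparisons were made within them, and those across them are named as such. Dlx5 had a mean signal of 10.9 ± 2.97 in the Dlx5/6 mutant, against 727 ± 40.5 in the WT mandibular branch, and Dlx6 averaged 3.32 ± 1.52 in the mutant, against 249.6 ± 51.3 in WT (SD, n = 3 each). In the KO maxillary branch Dlx2 averaged 3.36 ± 0.18, against 422 ± 20.1 in set 2, and Dlx1 209 ± 11.7, against 711 ± 30.8 (SD, n = 3 each). Log2 changes were fitted with limma on log2(signal + 32) after quantile normalization, and a change counted as called where its adjusted p, by Benjamini and Hochberg over 31643 probe sets, was under 0.05. Adding 32 makes the changes of dim probe sets smaller than they were.

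Meg3, Igf2, Cdkn1c, Peg3, Mest and Plagl1, 6 of the 9 members counted, fell in the Dlx5/6 mutant mandibular branch, where 3.16% of all genes were called. In wild type those genes and Rian, 7 of 9, stood higher in the mandibular than in the maxillary branch, where 3.56% were called. Igf2 fell 1.75-fold in the mutant and was 2.3-fold higher between the WT branches. These counts take 1 probe set a gene, which for Dlk1 is a dim one. The bright Dlk1 probe set fell 2.29-fold in the mutant. The calls of Peg3 and Mest in the mutant and of Cdkn1c between the WT branches were lost in some alternative fits, given below. In the mutant against the WT mandibular branch, 15 of the 30 member probe sets fell, 0 rose and 15 were not called, where 2.66% of all probe sets were called, 1.41% higher and 1.25% lower. The median log2 change of the member probe sets was -0.36, against -0.0046 over all. In the WT mandibular branch against WT maxillary set 1, 18 of 30 were higher, 0 were lower and 12 were not called, where 2.64% of all were called, 1.13% higher and 1.51% lower. Of all calls in that comparison 42.6% were higher in the mandibular branch, and 56.5% with a common median in place of quantile normalization. The median was 0.69, against 0.0057 over all. Both comparisons used the same 3 WT mandibular arrays, so a high or low value there enters both with opposite sign. Members and lists were chosen with earlier results of these data known. Their counts beside the shares over all, here and below, are thus descriptions and no independent test. In bulk tissue fewer cells of a type and less RNA per cell cannot be told apart. The plot of signals by array shows the values of 9 members and the H19 pair.

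**Figure D1:**
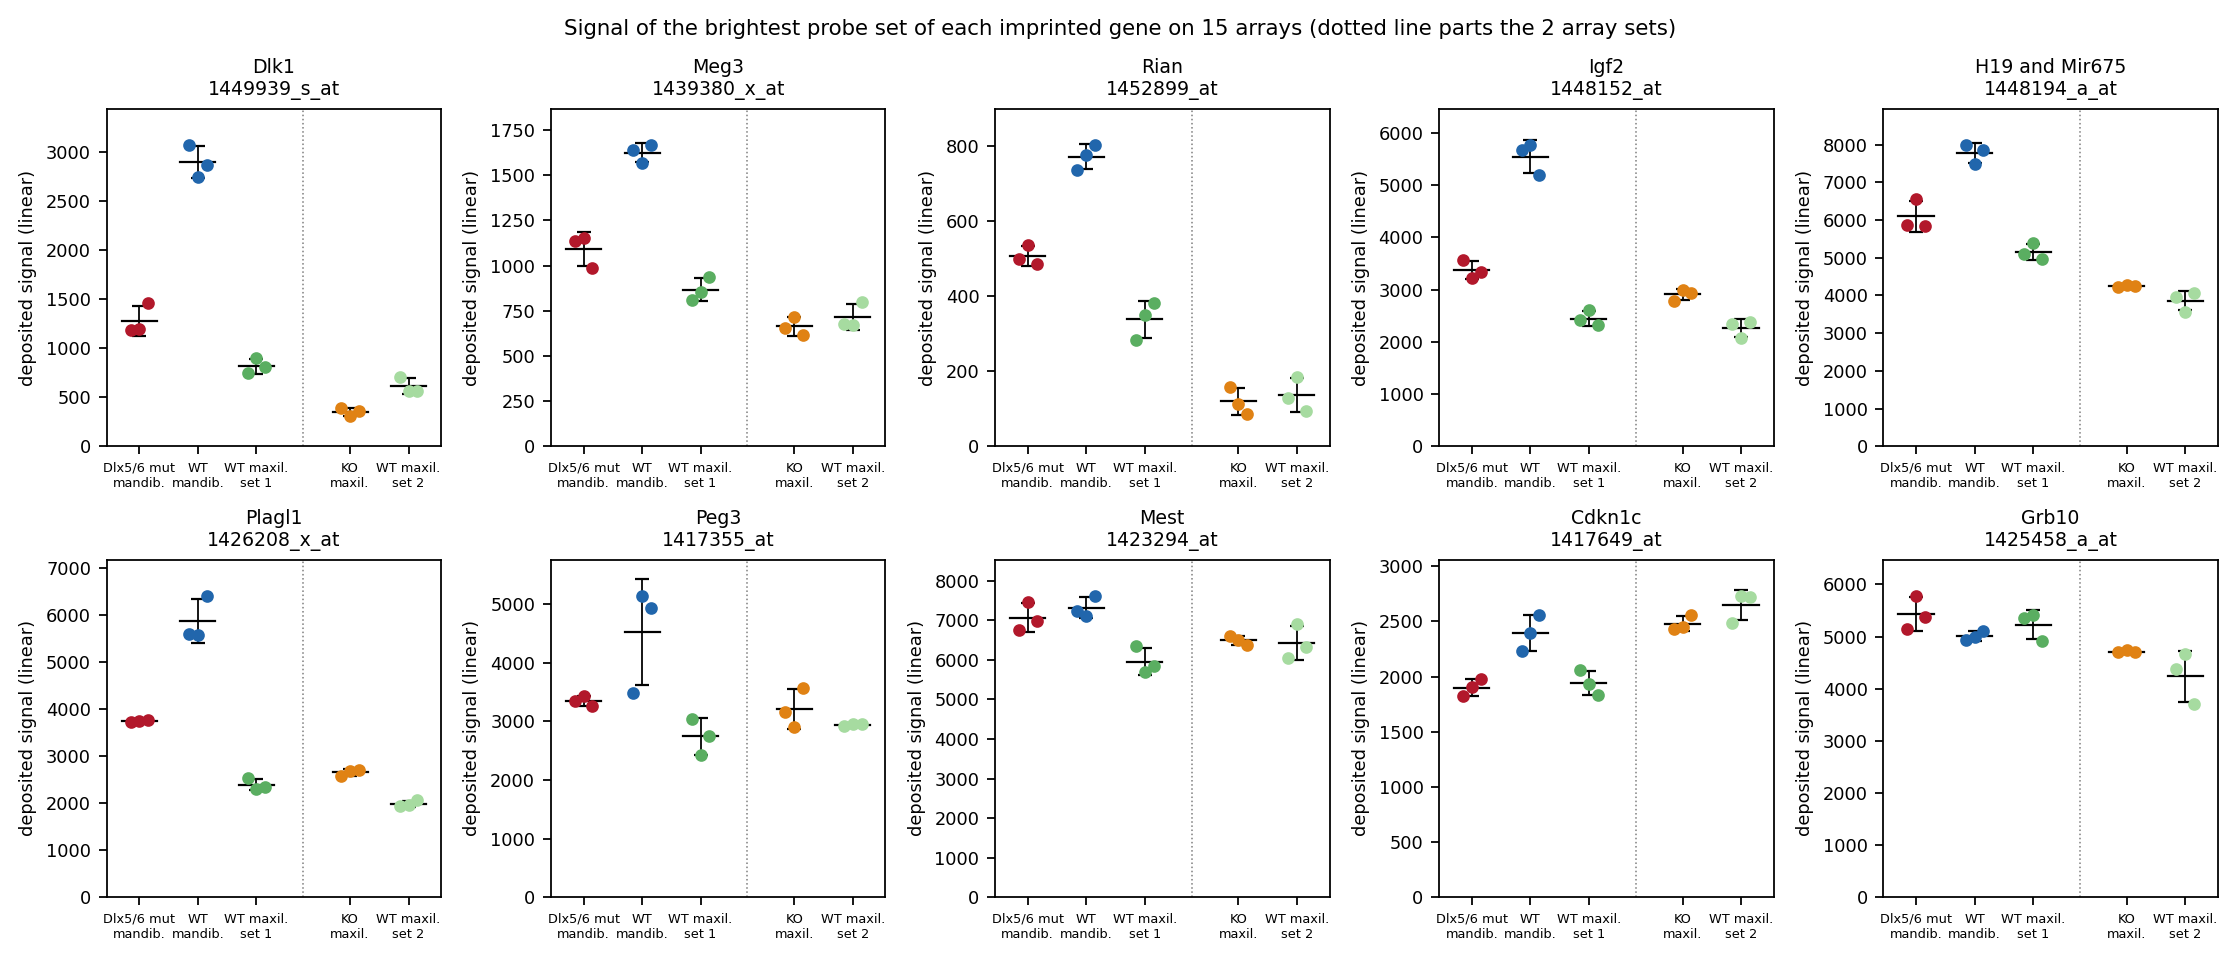
Signal (linear, scaled to a trimmed mean of 150 per array) of each imprinted growth gene on the 15 arrays, with 1 point per array, the group mean as a line and its SD as an error bar; a dotted line parts the 2 array sets. For the bright Dlk1 probe set the 3 WT mandibular arrays run from 2752 to 3077 and the Dlx5/6 mutant arrays from 1184 to 1460.4, while all maxillary arrays lie lower.

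Dlk1 encodes a membrane protein of the Notch ligand family that keeps precursor cells from differentiating. Its bright probe set had signals of 1184, 1199 and 1460.4 in the Dlx5/6 mutant, 3077, 2752 and 2870.4 in the WT mandibular branch and 747, 902 and 808 in WT maxillary set 1. The 3 groups did not overlap, and the mutant lay between the WT branches. Dlk1 fell 2.29-fold in the mutant (log2 change -1.20, SE 0.099, adjusted p = 3.07e-08) and was 3.5-fold higher in the WT mandibular than in the maxillary branch (log2 change 1.81, SE 0.099, adjusted p = 1.49e-11). This probe set was chosen for its brightness after its values were seen, since the rule for naming took a dim Dlk1 probe set without cross-hybridization mark. That dim probe set was not called in the mutant (log2 change 0.042, SE 0.17, adjusted p = 0.963) or between the WT branches (0.12, adjusted p = 0.878).

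Meg3 and Rian are long non-coding RNAs of the Dlk1 cluster that are read from the other parental copy. The Meg3 probe set of the naming rule had 481, 418 and 387 in the mutant branch, 753, 649 and 647 in the WT mandibular branch and 339.9, 338 and 339.6 in WT maxillary set 1. As for Dlk1, the mutant arrays lay between the WT branches without overlap. Meg3 fell in the mutant (log2 change -0.63, SE 0.11, adjusted p = 0.00109) and was higher in the WT mandibular than in the maxillary branch (log2 change 0.94, SE 0.11, adjusted p = 3.45e-06). Of 11 Meg3 probe sets, 5 fell in the mutant, by 0.54 to 0.86 on the log2 scale, 5 were higher in the WT mandibular branch, and the others were not called. Its brightest probe set had 1136, 1154 and 985 in the mutant branch, against 1638, 1566 and 1667 in the WT mandibular branch, and it fell too (-0.57, adjusted p = 8.90e-05).

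Rian had signals of 500.0, 538 and 486 in the mutant branch, 737, 777 and 804 in the WT mandibular branch and 284, 351 and 382 in WT maxillary set 1. The mutant arrays all lay below the WT mandibular arrays, but the change missed the threshold (log2 change -0.58, SE 0.16, adjusted p = 0.0517) with the spread estimated over all 5 groups. It passed when only the compared groups were fitted (-0.58, adjusted p = 6.59e-04), and with the arrays set to a common median (-0.60, adjusted p = 0.0274). In 10 of 15 alternative runs the change stayed uncalled, with an adjusted p of up to 0.189. Between the WT branches Rian was higher in the mandibular one (log2 change 1.13, SE 0.16, adjusted p = 5.56e-05), and 3 of its 4 probe sets were called there. A dim Rian probe set was called lower in the mutant (log2 change -0.58, SE 0.15, adjusted p = 0.0432) although its signals, 74.7, 50.1 and 54.4 in the mutant branch, against 68.6, 125 and 134 in the WT mandibular branch, overlapped.

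Igf2 is a growth factor of the insulin family and the best known growth promoter among imprinted genes. Its signals were 3558, 3222 and 3333 in the mutant branch, 5671, 5768 and 5184 in the WT mandibular branch and 2416, 2603 and 2314 in WT maxillary set 1. The 3 groups again did not overlap and stood in the order of Dlk1. Igf2 fell 1.75-fold in the mutant (log2 change -0.81, SE 0.071, adjusted p = 7.28e-08) and was 2.3-fold higher in the WT mandibular than in the maxillary branch (log2 change 1.20, SE 0.071, adjusted p = 4.84e-11). A dim Igf2 probe set was higher between the WT branches (0.86, adjusted p = 0.0165) and was not called in the mutant (-0.34, adjusted p = 0.516).

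H19 is a long non-coding RNA beside Igf2 that is read from the maternal copy, and Mir675 is a microRNA made from it. The probe set of the pair had 5877, 6565 and 5840.5 in the mutant branch, 7989, 7488 and 7844 in the WT mandibular branch and 5101, 5396 and 4961 in WT maxillary set 1. The pair thus stood in the same order as Igf2, without overlap. It fell in the mutant (log2 change -0.54, SE 0.063, adjusted p = 6.36e-06) and was higher in the WT mandibular than in the maxillary branch (log2 change 0.68, SE 0.063, adjusted p = 1.11e-07).

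Plagl1, the zinc finger factor, had 3717, 3738 and 3771 in the mutant branch, 5599.9, 5583 and 6408 in the WT mandibular branch and 2531, 2308 and 2342 in WT maxillary set 1 for its brightest probe set, which is marked as open to cross-hybridization and was chosen after its values were seen. It fell 1.67-fold in the mutant (log2 change -0.74, SE 0.054, adjusted p = 3.58e-09) and was 2.49-fold higher in the WT mandibular than in the maxillary branch (log2 change 1.32, SE 0.054, adjusted p = 9.99e-14). The probe set of the naming rule was dimmer, with 86.3, 56.9 and 62.1 in the mutant branch, 217, 196 and 217 in the WT mandibular branch and 49.0, 31.8 and 38.6 in WT maxillary set 1. Both probe sets showed the same order of groups. The dimmer one fell too (log2 change -1.24, SE 0.19, adjusted p = 2.82e-04) and was higher between the WT branches (log2 change 1.76, SE 0.19, adjusted p = 1.42e-06), while another Plagl1 probe set was not called in either comparison (-0.14, adjusted p = 0.912 in the mutant).

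Peg3 encodes a large zinc finger protein read from the paternal copy. Its brightest probe set had 3344, 3437 and 3254 in the mutant branch, 3487, 5143 and 4931 in the WT mandibular branch and 3047, 2427 and 2758 in WT maxillary set 1. The first WT mandibular array lay close to the mutant arrays and the other two well above them. Peg3 fell in the mutant (log2 change -0.49, SE 0.10, adjusted p = 0.00634), a call that was lost without WT mandibular replicate 2 (-0.37, adjusted p = 0.0571) and without an intensity trend (adjusted p = 0.0963), and it was higher in the WT mandibular than in the maxillary branch (log2 change 0.71, SE 0.10, adjusted p = 6.08e-05). Its other kept probe sets fell as well, by 0.48 and 0.77 on the log2 scale (adjusted p = 3.65e-05 and 1.73e-07). The second of them had 1084, 1051 and 1092 in the mutant branch, against 2059, 1662 and 1808 in the WT mandibular branch, which did not overlap.

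Cdkn1c encodes the p57 inhibitor of cyclin-dependent kinases, which stops cells from dividing. It had 1819, 1901 and 1981 in the mutant branch, 2232, 2393 and 2555 in the WT mandibular branch and 2058, 1929.7 and 1836 in WT maxillary set 1. Unlike Dlk1 and Igf2, the mutant arrays overlapped those of the maxillary branch. Cdkn1c fell in the mutant (log2 change -0.35, SE 0.060, adjusted p = 0.00109) and was slightly higher between the WT branches (log2 change 0.28, SE 0.060, adjusted p = 0.00746), where the call was lost without WT mandibular replicate 3 (adjusted p = 0.063), without set 1 replicate 3 (adjusted p = 0.067) or without an intensity trend (adjusted p = 0.117).

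Mest encodes a protein of the hydrolase family read from the paternal copy. Its signals, among the highest of the members, were 6749, 7468 and 6978 in the mutant branch, 7236, 7105 and 7622 in the WT mandibular branch and 6350.0, 5687 and 5834 in WT maxillary set 1. Its arrays of both mandibular groups overlapped. A small fall in the mutant was called (log2 change -0.21, SE 0.044, adjusted p = 0.0073) but not when the arrays were only set to a common median (-0.074, adjusted p = 0.699) or fitted without an intensity trend (adjusted p = 0.206), and Mest was higher in the WT mandibular than in the maxillary branch (log2 change 0.34, SE 0.044, adjusted p = 1.53e-05).

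Grb10, an adaptor protein that dampens insulin and growth factor receptor signalling, was the member whose kept probe sets were not called in either comparison. Its brightest probe set had 5154, 5784 and 5369 in the mutant branch, 4934, 4983 and 5112 in the WT mandibular branch and 5359, 5424 and 4907 in WT maxillary set 1. The mutant signals lay above the WT mandibular signals without overlap before normalization, but the fitted change was small (log2 change -0.010, SE 0.064, adjusted p = 0.974), with a 95% interval of -0.14 to 0.12. Between the WT branches it was -0.050 (adjusted p = 0.849). In both comparisons the direction of this probe set turned with the scaling or with single arrays left out, so no direction is read from it.

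**Figure D2:**
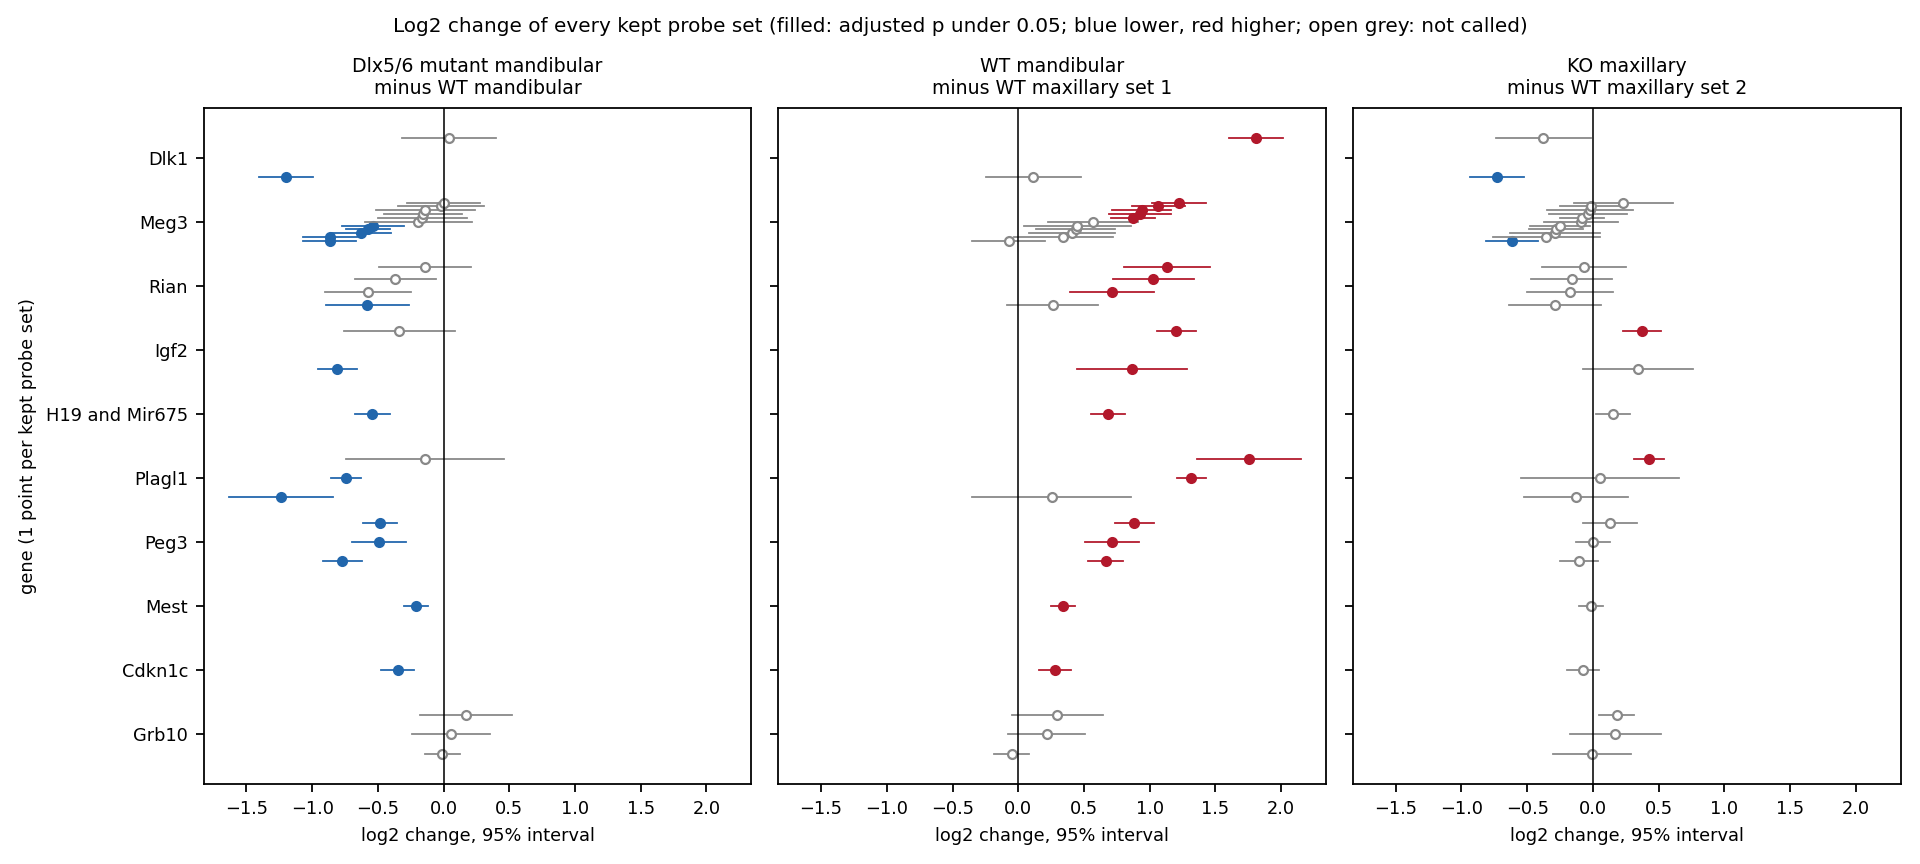
Log2 change of every kept member probe set (x axis, with its 95% interval) by gene (y axis), in 3 panels for the Dlx5/6 mutant minus WT mandibular branch, the WT mandibular branch minus WT maxillary set 1 and the KO minus WT maxillary set 2; filled points were called at an adjusted p under 0.05, blue lower and red higher. The bright Dlk1 probe set stands at -1.20 in the Dlx5/6 mutant and at 1.81 between the WT branches. The dim Dlk1 probe set stands at 0.042 and 0.12 there and was not called. The bright Igf2 probe set stands at -0.81 in the first panel, 1.20 in the second and 0.37 in the last.

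In the KO maxillary branch against WT maxillary set 2, fewer member probe sets were called than in the 2 comparisons above, and in both directions. Of 30 member probe sets 2 rose, 2 fell and 26 were not called, where 0.913% of all were called, 0.465% higher and 0.449% lower. Of all calls 50.9% were rises, and 32.7% with a common median in place of quantile normalization. The median change of the member probe sets was -0.072, against -0.0023 over all. The calls lay in Dlk1, Meg3, Igf2 and Plagl1, each in 1 probe set.

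The bright Dlk1 probe set had 391, 310.2 and 358 in the KO and 708, 563 and 569.5 in WT maxillary set 2, without overlap. It fell 1.66-fold (log2 change -0.73, SE 0.099, adjusted p = 1.43e-04), while the dim Dlk1 probe set was not called (-0.38, adjusted p = 0.46). Of 11 Meg3 probe sets 1 was called, with 165, 146 and 144 in the KO and 222, 226 and 295 in set 2. It fell (log2 change -0.62, SE 0.097, adjusted p = 9.71e-04), while the brightest Meg3 probe set had 656, 718 and 616 in the KO and 677, 674 and 801 in set 2 and was not called (-0.083, adjusted p = 0.796).

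Igf2 had 2789, 2995 and 2939 in the KO and 2350.0, 2076 and 2389 in WT maxillary set 2. All KO arrays were higher, and the rise was called (log2 change 0.37, SE 0.071, adjusted p = 0.00671). It was lost with a common median (0.30, adjusted p = 0.0548), without KO replicate 2 (adjusted p = 0.0525), without set 2 replicate 2 (adjusted p = 0.0628) or without an intensity trend (adjusted p = 0.127), and against WT maxillary set 1 it was 0.20 (adjusted p = 0.07). Plagl1 rose in its brightest probe set, with 2575, 2673 and 2709.7 in the KO and 1948, 1955 and 2066 in set 2 (log2 change 0.43, SE 0.054, adjusted p = 5.52e-05), but its dim probe set of the naming rule was not called (-0.13, adjusted p = 0.888). Against WT maxillary set 1 the brightest Plagl1 probe set was 0.097 (adjusted p = 0.291) and the bright Dlk1 probe set -1.13 (adjusted p = 5.78e-08).

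The other members gave no call in the KO. The H19 pair had 4233, 4274 and 4252 in the KO and 3964, 3568 and 4064 in set 2, higher on all KO arrays, with a change that missed the threshold (log2 change 0.15, SE 0.063, adjusted p = 0.375). Rian had 159, 114 and 86.6 in the KO and 130.4, 184 and 95.4 in set 2, which overlapped (-0.18, adjusted p = 0.777). Cdkn1c had 2434, 2446 and 2559 in the KO and 2487, 2732 and 2721 in set 2, which overlapped as well (-0.075, adjusted p = 0.741). Peg3 stood at 0.13 (adjusted p = 0.729), Mest at -0.016 (adjusted p = 0.944) and Grb10 at 0.18 (adjusted p = 0.269).

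The change in the Dlx5/6 mutant mandibular branch was also set against the change in the KO maxillary branch, by a test of the difference. The difference was called for 8 of 30 member probe sets, all toward a lower value in the Dlx5/6 mutant, where 1.09% of all were called, 0.528% higher and 0.566% lower. They belonged to Igf2, Peg3, Plagl1 and Meg3, and the H19 pair was called as well. For Igf2 the change was -0.81 in the Dlx5/6 mutant and 0.37 in the KO, a difference of -1.18 (adjusted p = 7.54e-08). For the bright Dlk1 probe set, which fell in both, the difference of -0.47 was not called (adjusted p = 0.15). The mutants differ from each other in branch and array set as well as in genotype, and these cannot be told apart. With single arrays left out 4 to 7 member probe sets were called, with 4 called without KO replicate 1 or WT mandibular replicate 3 and 5 without Dlx5/6 mutant replicate 2 or 3, WT mandibular replicate 2 or any of the set 2 arrays. The Igf2 difference was called in every alternative run.

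WT maxillary set 2 differed from set 1 in some members, although both were labelled as the same tissue. Of 30 member probe sets 2 were higher and 10 lower in set 2, where 8.49% of all were called, 4.11% higher and 4.38% lower. By its brightest probe set Rian had 130.4, 184 and 95.4 in set 2 and 284, 351 and 382 in set 1 (log2 change -1.13, SE 0.16, adjusted p = 5.04e-05). The 4 Rian probe sets did not go 1 way: 2 were called lower and 1 higher in set 2. The higher one was dim, with means of 91.9 in set 2 and 52.7 in set 1 (log2 change 0.57). The bright Dlk1 probe set had 708, 563 and 569.5 in set 2 and 747, 902 and 808 in set 1 (log2 change -0.40, SE 0.099, adjusted p = 0.0132), and the H19 pair was lower too (-0.47, adjusted p = 2.77e-05). The Dlk1 call was lost without set 1 replicate 2 (adjusted p = 0.0846), set 2 replicate 2 (0.0719) or set 2 replicate 3 (0.0681) and without an intensity trend (0.0788). Cdkn1c was higher, with 2487, 2732 and 2721 in set 2 and 2058, 1929.7 and 1836 in set 1 (log2 change 0.39, SE 0.060, adjusted p = 1.84e-04). Array set and group cannot be told apart here.

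Set in order over all wild-type arrays, as a description that crosses the array sets, the WT mandibular branch stood above every WT maxillary array for the bright probe sets of Dlk1, Meg3, Rian, Igf2, Plagl1, Peg3, Mest and the H19 pair. For Cdkn1c it stood above set 1 and overlapped set 2, and for Grb10 it overlapped set 1 and stood above set 2. The dim Dlk1 probe set overlapped, with 17.7 to 29.3 in the WT mandibular branch and 12.8 to 28.4 in set 1. The share of all probe sets that separate in this way was not counted, so the order cannot be weighed against it. Across the array sets, 3318 probe sets were called for the WT mandibular branch against set 2.

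Across the 15 arrays, with each array set centred on its own mean, the brightest probe sets of the 9 members gave 36 pairwise correlations from -0.31 to 0.96, with a median of 0.75. Dlk1, Meg3 and Rian correlated with each other at 0.81 to 0.87. This was no higher than among members at large. The 21 pairs of members other than Grb10 and Cdkn1c ran from 0.66 to 0.96, with a median of 0.83. Grb10 correlated with the other 8 members at -0.31 to 0.019. These values are descriptions, since the arrays share 5 groups and the same normalization. The search for similar genes took the probe set of the naming rule for every member but Dlk1. For Meg3 and Plagl1 that was a dimmer probe set than in the correlations above. Among 4763 genes that varied across the arrays, the most similar to Igf2 were Unc5c (r = 0.95), Cited1 (0.95) and Itm2a (0.95). For Dlk1, whose bright probe set was chosen after its values were seen, they were Capn6 (0.97), Hand1 (0.96) and Rps6ka6 (0.96). For Mest they were Fndc3c1 (0.95), Hand2 (0.95) and Dlx6os1 (0.94), for Meg3 Bnc1 (0.94), Csrp2 (0.93) and Dlx6os1 (0.92), and for Plagl1 Gpr50 (0.93), Ccn2 (0.93) and Unc5c (0.93). For Rian they were Lrrc17 (0.90), Kazald1 (0.90) and Hand1 (0.89), for Cdkn1c Dlx6 (0.94), Dlx1as (0.90) and Lpar4 (0.89), and for Peg3 Dsg2 (0.91), Nrk (0.89) and Dedd2 (0.89). Grb10, which was not called in the comparisons within the array sets, was left out of this search. Hand1 and Hand2 are transcription factors known to be active in the distal mandibular arch.

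A list of 50 other imprinted genes was set beside the members, of which 44 were on the array and 38 passed the signal limit. The list also held Dlx5, whose imprinting is disputed and which the mutant's label names, so counts are given for the remaining 37. In the Dlx5/6 mutant 5 of 37 fell and 0 rose (13.5%), with a median log2 change of -0.11, where 3.16% of all genes were called. In the WT mandibular against the maxillary branch 6 of 37 were higher and 0 lower (16.2%), with a median of 0.16, where 3.56% of all genes were called. In the KO 3 rose and 1 fell (10.8%), with a median of 0.0050, where 1.26% of all genes were called.

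**Figure D3:**
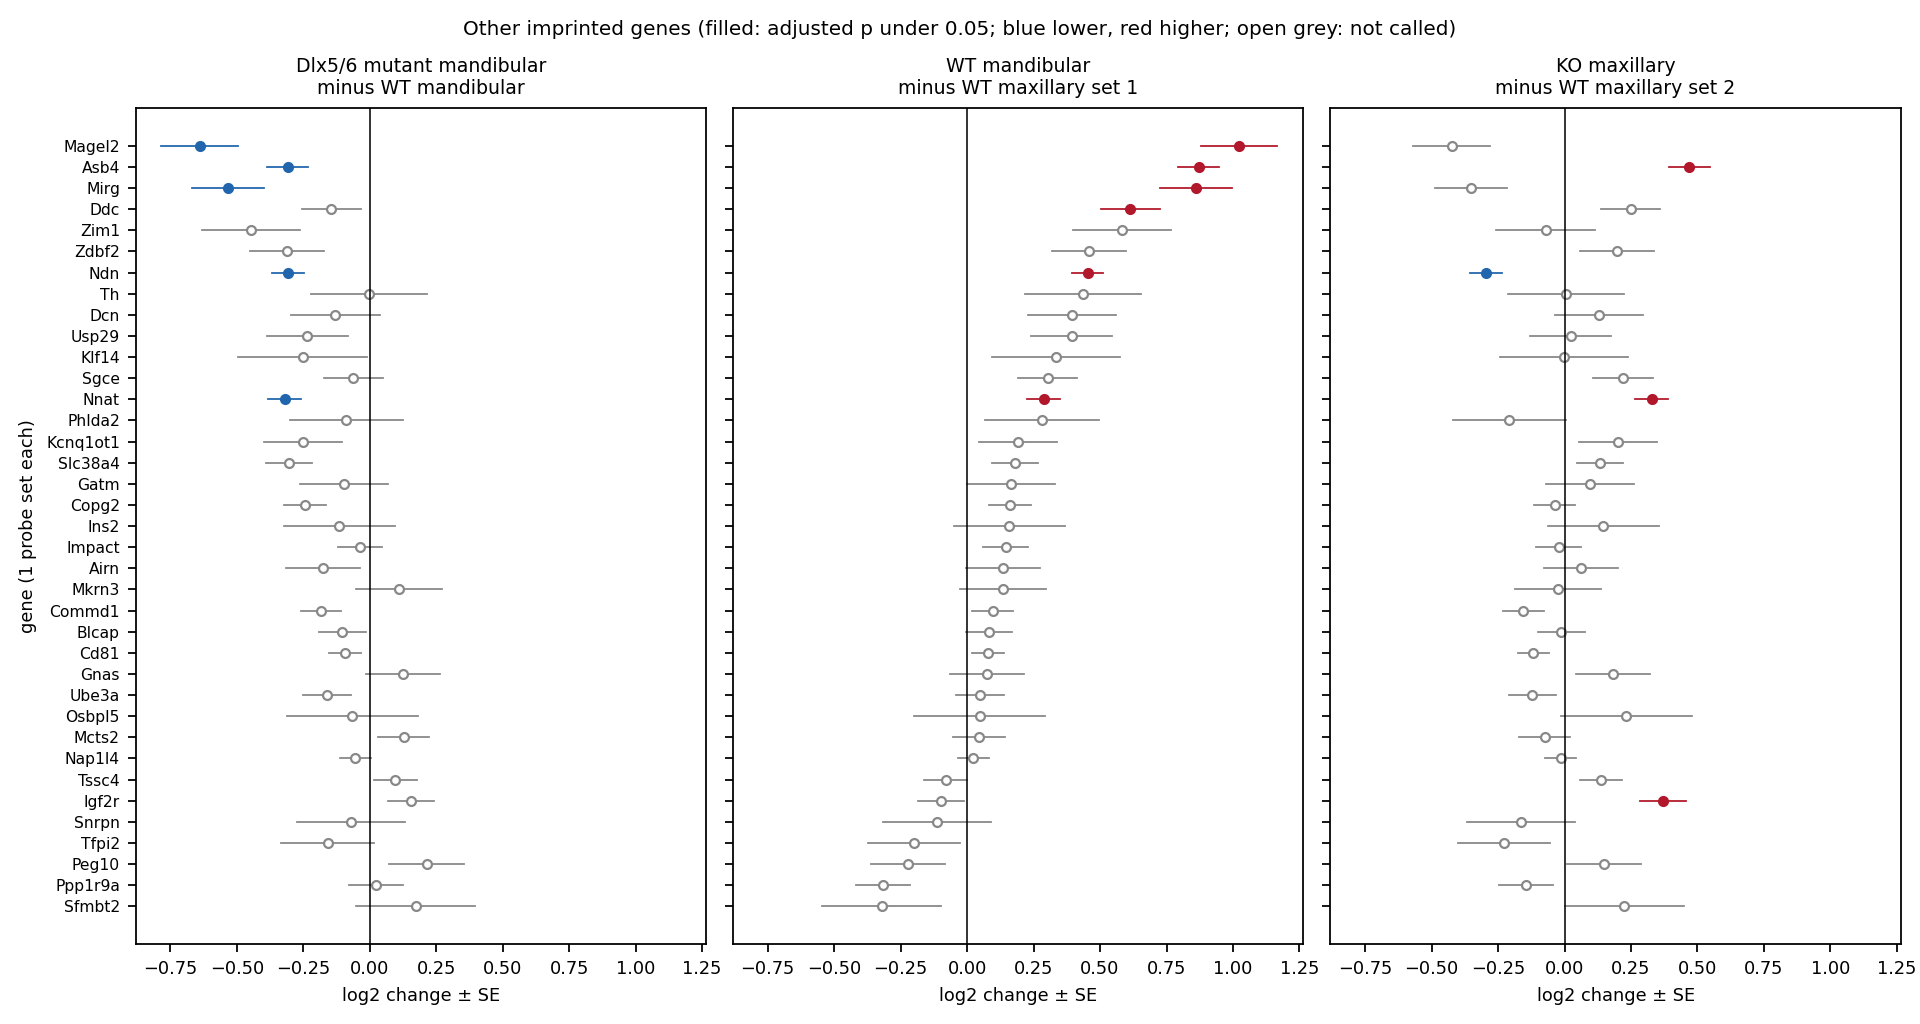
Log2 change ± SE (x axis) of the 37 other imprinted genes (y axis), in 3 panels for the Dlx5/6 mutant minus WT mandibular branch, the WT mandibular branch minus WT maxillary set 1 and the KO minus WT maxillary set 2; filled points were called, blue lower and red higher. Magel2 stands lowest in the Dlx5/6 mutant and highest between the WT branches, and Asb4 and Nnat lie above 0 in the KO and below 0 in the Dlx5/6 mutant.

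Magel2, a gene of the Prader-Willi region that acts in protein ubiquitination, had 170.2, 155 and 123 in the mutant branch, 255, 249 and 256 in the WT mandibular branch and 110.0, 119 and 95.5 in WT maxillary set 1. It fell in the mutant (log2 change -0.64, SE 0.14, adjusted p = 0.0139) and was higher in the WT mandibular than in the maxillary branch (log2 change 1.02, SE 0.14, adjusted p = 5.99e-05). Mirg, a microRNA host transcript of the Dlk1 cluster, had 122, 113 and 112 in the mutant branch, against 195, 179 and 184 in the WT mandibular branch. It also fell (log2 change -0.53, SE 0.13, adjusted p = 0.0305) and was higher between the WT branches (log2 change 0.86, SE 0.13, adjusted p = 2.40e-04). Ndn, a neighbour of Magel2 known for restraining cell growth, fell in the mutant (log2 change -0.31, SE 0.060, adjusted p = 0.00396) and in the KO (log2 change -0.29, SE 0.060, adjusted p = 0.0117). Asb4, part of a ubiquitin ligase, had 850.1, 991 and 917 in the KO and 713, 589.9 and 672 in set 2. Asb4 rose in the KO (log2 change 0.47, SE 0.078, adjusted p = 0.00163) and fell in the Dlx5/6 mutant (log2 change -0.31, SE 0.078, adjusted p = 0.0299). Nnat did likewise, with a rise in the KO (log2 change 0.33, SE 0.062, adjusted p = 0.00671) and a fall in the Dlx5/6 mutant (log2 change -0.32, SE 0.062, adjusted p = 0.00406). The changes of both differed between the mutants, by -0.78 (SE 0.11, adjusted p = 1.64e-04) for Asb4 and -0.65 (SE 0.088, adjusted p = 1.02e-04) for Nnat. Igf2r, the receptor that clears Igf2, rose in the KO (log2 change 0.37, SE 0.087, adjusted p = 0.0389). Ddc, the enzyme that makes dopamine from DOPA, was higher in the WT mandibular than in the maxillary branch (log2 change 0.61, SE 0.11, adjusted p = 0.00137). So were Asb4 (0.87, SE 0.078, adjusted p = 5.92e-08), Ndn (0.45, SE 0.060, adjusted p = 2.44e-05) and Nnat (0.29, SE 0.062, adjusted p = 0.00797). The Nnat call between the WT branches was lost without normalization (adjusted p = 0.0854) and without an intensity trend (0.146). The call of Ndn in the KO was lost in 4 of 6 fits with an array left out (adjusted p up to 0.0934) and without an intensity trend (0.153), and all 5 calls in the Dlx5/6 mutant were lost without that trend (adjusted p = 0.0852 for Ndn). The calls of Mirg and Asb4 in the Dlx5/6 mutant and of Igf2r in the KO were lost whichever of the 6 arrays was left out (highest adjusted p = 0.115, 0.15 and 0.183). Those of Nnat in the mutants were lost with a common median, at -0.20, adjusted p = 0.234 in the Dlx5/6 mutant and 0.27, adjusted p = 0.125 in the KO. That of Magel2 in the Dlx5/6 mutant was lost without mutant replicate 3 (adjusted p = 0.104).

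Marker genes of other cells in the arch were read on the same arrays, as summed signal per list. The list for arch mesoderm and muscle (5 of 6 genes on the array) was highest in the WT mandibular branch, as most members were, with 188 to 214 in the Dlx5/6 mutant, 319 to 331 in the WT mandibular branch and 143 to 195 in WT maxillary set 1. In the KO it was 249 to 279, against 153 to 205 in set 2. Of its 5 genes 1 fell in the Dlx5/6 mutant, 2 were higher in the WT mandibular than in the maxillary branch and 1 rose in the KO. Of all genes 3.16%, 3.56% and 1.26% were called in these comparisons, in that order. The same shares stand behind the calls of the lists below, which are too short to be weighed against them. Its defining gene Myf5 averaged 16.7 ± 5.69 in the mutant, 59.9 ± 11.6 in the WT mandibular branch and 11.0 ± 2.25 in set 1 (SD, n = 3 each). In the KO 4 of the 5 genes had a positive change and 1 a negative one. Most of the higher sum lay in Lhx2, with 115 ± 12.4, against 54.9 ± 4.84 in set 2 (SD, n = 3 each). Myf5 had 23.3 ± 8.55 in the KO and 7.30 ± 1.63 in set 2, while Msc, the negative one, had 41.8 ± 7.82 and 51.5 ± 11.8 (SD, n = 3 each). The part of this list in the results was not tested. Sensory neuron markers (12 of 12) summed to 568 to 663 in the mutant, 523 to 563 in the WT mandibular branch and 2895 to 2999.8 in WT maxillary set 1, and to 998 to 1003 in the KO and 1195 to 1234 in set 2. Glial markers (4 of 6) summed to 201 to 246 in the mutant, to 172 to 228 in the WT mandibular branch, to 604 to 765 in set 1, to 355 to 371 in the KO and to 399 to 511 in set 2. They moved with the difference between the WT branches, in which all 11 kept neuron markers were lower in the mandibular branch, and their part was not tested. Macrophage markers (6 of 6) summed to 370.3 to 380.2 in the mutant branch, against 235 to 263 in the WT mandibular branch, and to 519 to 571 in the KO and 351 to 393 in set 2. Endothelial markers (6 of 6) summed to 641 to 719 in the mutant branch, against 655 to 724 in the WT mandibular branch, and to 906 to 1056 in the KO and 686 to 757 in set 2. Epithelial markers (6 of 6) summed to 1930.3 to 2037 in the mutant, against 1859 to 1984 in the WT mandibular branch, and to 2062 to 2185 in the KO and 1755 to 1844 in set 2. Primitive red cell markers (5 of 6) summed to 25843 to 29409.8 in the mutant, against 23671 to 24642 in the WT mandibular branch, and to 27691 to 28684 in the KO and 24783 to 27602 in set 2. Markers of arch mesenchyme (8 of 8), the labelled tissue's main cells, were present in every group and summed to 8485 to 8879.9 in the mutant branch, against 6873 to 7469 in the WT mandibular branch, and to 6809 to 7144 in the KO and 8368 to 8765 in set 2. That list holds Dlx1 and Dlx2, whose low signals in the KO, given above, enter its sum. In WT maxillary set 1 the sums were 355 to 373 for macrophage, 708 to 808 for endothelial and 1684 to 1821 for epithelial markers. Those of red cell markers were 22885 to 23521 and of mesenchyme markers 8394 to 8848 there. Between the WT branches 4 of 8 mesenchyme markers were called lower in the mandibular branch and 1 higher. Of 6 macrophage markers 1 was called lower there, of 4 glial markers 3 lower, and of 5 red cell markers 1 higher. In the Dlx5/6 mutant 3 mesenchyme markers were called higher and 1 lower, 2 of 11 neuron markers higher and 1 macrophage marker higher. In the KO 3 mesenchyme and 3 neuron markers were called lower, and 1 macrophage and 1 of 6 endothelial markers higher. No glial, epithelial or red cell marker was called in the Dlx5/6 mutant or the KO. The part of these lists in the results was not tested.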

How the data were processed

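Per the deposited table, each array gave a linear intensity for every probe set of an Affymetrix mouse chip, scaled by the authors to the same trimmed mean. How the probes were summarised and corrected for background is not given in the sources used here. From these intensities log2(value + 32) was computed, and because array medians on that scale differed by 0.159, above the limit of 0.1, the arrays were quantile normalized. Of 45101 probe sets, 64 were controls and 31643 lay above the 40th percentile on at least 3 arrays. Groups came from the sample titles. Comparisons were contrasts in 1 limma model (limma 3.58.1, R 4.3.3) over the 5 groups with 10 residual degrees of freedom and an intensity trend, two-sided, adjusted over all kept probe sets, and called under 0.05. SEs of the log2 changes had a median of 0.148, and the number of arrays limits the precision. Scripts were tested on simulated data. Each gene was named by its brightest kept probe set without cross-hybridization mark; up to 5 called genes per comparison were named from the other imprinted genes, and the 3 genes with the highest correlation per member. Members and lists were chosen with earlier results of these data known. The replicate numbers did not pair the samples: deviations of same-numbered arrays of an array set correlated at -0.096 to 0.060 over 12 pairs. Other scalings, filters, added constants, fits and arrays left out were tried.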

Additional observations from a re-analysis of the deposited data

Results flagged for a closer look

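Some members changed differently in the Dlx5/6 mutant mandibular branch and in the KO maxillary branch, by limma's test of the difference of the log2 changes. Igf2 changed by -0.81 in the Dlx5/6 mutant and by 0.37 in the KO, a difference of -1.18 (SE 0.10, adjusted p = 7.54e-08). The H19 and Mir675 pair changed by -0.54 in the Dlx5/6 mutant and by 0.15 in the KO, a difference of -0.70 (SE 0.089, adjusted p = 4.42e-05). Plagl1, by its brightest probe set, changed by -0.74 in the Dlx5/6 mutant and by 0.43 in the KO, a difference of -1.17 (SE 0.076, adjusted p = 8.03e-10). Its dimmer probe set of the naming rule changed by -1.24 in the Dlx5/6 mutant and by -0.13 in the KO, a difference of -1.11 (SE 0.27, adjusted p = 0.0428). Igf2 and the brightest Plagl1 probe set fell in the Dlx5/6 mutant and rose in the KO, where the H19 pair was not called. Peg3, by the probe set of the naming rule, changed by -0.49 in the Dlx5/6 mutant and by 0.13 in the KO, a difference of -0.62 (SE 0.14, adjusted p = 0.0273). The other bright Peg3 probe set changed by -0.48 in the Dlx5/6 mutant and by 0.00061 in the KO, a difference of -0.48 (SE 0.090, adjusted p = 0.00424). The dimmest Peg3 probe set kept changed by -0.77 in the Dlx5/6 mutant and by -0.11 in the KO, a difference of -0.66 (SE 0.10, adjusted p = 3.87e-04). Meg3, by its brightest probe set, changed by -0.57 in the Dlx5/6 mutant and by -0.083 in the KO, a difference of -0.49 (SE 0.11, adjusted p = 0.0319). A dimmer Meg3 probe set changed by -0.86 in the Dlx5/6 mutant and by -0.28 in the KO, a difference of -0.58 (SE 0.14, adjusted p = 0.0419). Of these calls, that of Peg3 by the naming rule was lost in 10 of 12 fits with an array left out, with a common median (adjusted p = 0.156), without normalization (0.104), without a filter (0.0813) and without an intensity trend (0.223). That of the dimmer Plagl1 probe set was lost in 9 of 12, with a smaller added constant (adjusted p = 0.23), without a filter (0.117), without a trend (0.13) and with only the compared groups (0.0558). That of the brightest Meg3 probe set was lost in 7 of 12, with a common median (adjusted p = 0.0952), without normalization (0.0588), without a filter (0.0549) and without a trend (0.179). The remaining Peg3 and Meg3 probe sets named here were not recomputed singly. Of the other imprinted genes, Asb4 rose in the KO and fell in the Dlx5/6 mutant, a difference of -0.78 (SE 0.11, adjusted p = 1.64e-04), and Nnat did so with -0.65 (SE 0.088, adjusted p = 1.02e-04). Against WT maxillary set 1 Nnat was -0.43 in the KO (adjusted p = 6.24e-05). Branch and array set differ between the mutants as well, and these cannot be told apart from genotype.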

How the results depend on the processing

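Of 1380 recomputed values of single genes (members and called other imprinted genes), 1229 kept direction and call, 118 lost the call, 10 gained it and 23 turned. Without an intensity trend the calls over all probe sets were 452 in the Dlx5/6 mutant, 172 in the KO, 1634 between the WT maxillary sets (5 of them members) and 219 for the difference of the mutant effects (3 members). For that difference 4 member probe sets were called with a common median and 4 without a filter. With the other WT maxillary set as control, 3310 probe sets were called in the KO (12 members) and 3318 in the WT mandibular branch (19 members). Leaving out single arrays gave 499 to 657 calls in the Dlx5/6 mutant (499 without mutant replicate 2, 519 without replicate 3; members 13 to 15), 177 to 221 in the KO (188 without KO replicate 2, 177 and 180 without set 2 replicates 1 and 3; members 3 to 5), 607 to 693 between the WT branches (members 15 to 18), 1773 to 2104 between the maxillary sets (1773 without set 2 replicate 2; members 8 to 9) and 258 to 309 for the difference (members 4 to 7; 4 without KO replicate 1 or WT mandibular replicate 3, 5 without mutant replicate 2 or 3, WT mandibular replicate 2 or any set 2 array). A fit with a replicate block gave 779 calls in the Dlx5/6 mutant (14 members) and 260 in the KO (4 members). Among the single-gene values it ended 1 call, that of the brightest Meg3 probe set between the maxillary sets (-0.27, adjusted p = 0.0534), and the replicate numbers gave no pairing. Small changes turned in direction: Grb10 in the Dlx5/6 mutant (0.093 with a common median, 0.12 without normalization, -0.026 to 0.019 with single arrays left out), Mest between the maxillary sets (0.11 in both scalings, -0.024 to 0.012) and in the KO (0.017 without normalization, -0.033 to 0.011). With single arrays left out the dim Dlk1 probe set ran from -0.024 to 0.13 in the Dlx5/6 mutant and from -0.015 to 0.22 between the WT branches, Grb10 from -0.083 to 0.0038 between the WT branches, Plagl1 from -0.39 to 0.093 and Rian from -0.36 to 0.022 in the KO, and between the maxillary sets Peg3 from -0.032 to 0.11 and Plagl1 from -0.42 to 0.067. With the other WT maxillary set as control, most turned values were called. Against set 1 the KO gave 0.31 for Cdkn1c (adjusted p = 0.00137), -0.20 for Grb10 (0.0442), -0.32 for the H19 pair (0.0016) and -0.43 for Nnat (6.24e-05). Against set 2 the WT mandibular branch gave -0.11 for Cdkn1c (0.317) and 0.33 for Grb10 (0.00118). These comparisons cross the array sets, so array set and group cannot be told apart in them. Rian fell with a call in the Dlx5/6 mutant with a common median (adjusted p = 0.0274), a larger added constant (0.00813) and a filter at the 60th percentile (0.0479). In 10 of 15 alternative runs it stayed uncalled there (adjusted p up to 0.189). The cause was not tested. Signals near the median of the array, such as the dim probe sets of Dlk1 and Plagl1, limit what can be seen in them.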
